A study of Mus musculus with 2 samples.

Results

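Genes of intraflagellar transport (IFT) and of the BBSome were examined in mouse embryonic stem (ES) cells labelled as Ago1 knockouts. The members were the protein-coding genes with a GENCODE release M21 symbol of Ift or Bbs and a digit, together with Ttc8, Arl6, Wdr19, Wdr35, Traf3ip1, Cluap1, Mkks and Lztfl1. This gave 30 genes of 55421 in the table, which holds 21976 protein-coding genes. All members came from 1 group of 2 libraries, called KO2 and KO1 after their replicate numbers. Both were polyadenylated RNA of E14 ES cells, a male line of 129/Ola background, with the labelled genotype AGO1 knockout, cultured on gelatin in DMEM with serum, leukaemia inhibitory factor, 2-mercaptoethanol and antibiotics. No unedited or untreated library was used here, so the values describe cells labelled as Ago1 knockouts and the difference between duplicates, and no effect of a knockout can be read from them. The labels do not tell whether the duplicates were separate clones or cultures.

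The libraries held 54408708 counts in KO2 and 57048330 in KO1. Ago1 itself had 452 counts (8.27 per 1000000, CPM) in KO2 and 1497 counts (26.4 CPM) in KO1, so its transcript was detected in both libraries. The ratio of KO2 over KO1 was 0.314-fold, a log2 ratio of -1.67 (95% counting interval -1.83 to -1.52), which lies beyond 2-fold. Counts per gene do not show which part of the transcript these reads came from, so the label could not be checked with them. A gene was called detected at 1 CPM or more in both libraries, and levels between genes were compared as TPM, the counts per kb of merged exons scaled to a sum of 1000000 in each library. The stem cell label was checked on listed markers, of which 7 of 7 pluripotency genes were detected, with a summed level of 5284 TPM in KO2 and 4884 TPM in KO1. Of the fibroblast markers 1 of 6 was detected, Thy1, which ES cells may also express, and Postn and Lum had 0 counts in both libraries. Markers of neural cells were detected in 3 of 6 cases and those of primitive endoderm in 5 of 5, at sums of 87.5 and 54.2 TPM in KO2, against 49.2 and 51.3 TPM in KO1. The neural sum was carried by Tubb3, with 82.1 TPM in KO2 and 43.7 TPM in KO1, while each of the other 5 genes was under 3 TPM. Markers of multiciliated cells were detected in 5 of 8 cases, summing to 17.8 TPM in KO2 and 15.8 TPM in KO1. Hydin had the highest mean of these, 5.47 ± 0.460 TPM (SD, n = 2). Foxj1 was at 1.72 CPM in KO2 and 0.915 CPM in KO1, so it missed the threshold in KO1 only. Mcidas, a regulator that starts the multiciliated programme, had 0 counts in both.

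Cilia are built and maintained by IFT, in which trains of protein complexes run along the microtubules of the axoneme between its base and its tip. IFT-B trains are carried outwards by the kinesin-2 motor, and IFT-A serves the return by dynein-2 and the entry of membrane proteins. The BBSome is a coat-like complex that rides on these trains and moves membrane receptors out of the cilium, and mutations of its genes cause Bardet-Biedl syndrome in humans. ES cells can carry a primary cilium, the non-motile form on which Hedgehog signalling depends.

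Every member was expressed, with 30 of 30 genes detected, where 55.3% of all protein-coding genes passed the same threshold. Counts ran upward from 176 in KO2 and 164 in KO1, both at Ift43. The members together held 0.0634% of all counts in KO2 and 0.0685% in KO1. The median over members was 11.1 TPM, beside 7.42 TPM for the 17663 protein-coding genes with a count and 20.1 TPM for the 12148 that were detected. Of the 30 members, 21 lay above the first of these medians and 9 above the second. Since whole cultures were measured, the share of ciliated cells and the RNA per cell cannot be told apart in these levels.

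**Figure D1:**
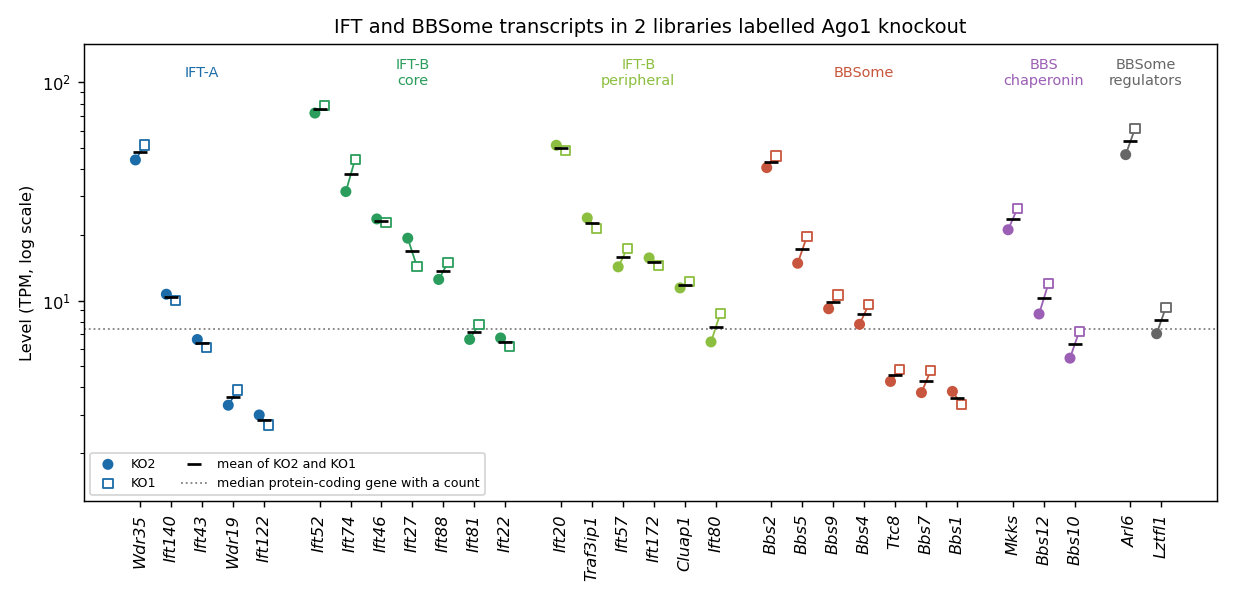
Level of each IFT and BBSome gene in TPM (log scale), grouped by complex, with filled circles for KO2, open squares for KO1 and a black bar for their mean. 1 gene leads each complex, from Ift52 at 75.2 TPM down to Mkks at 23.8 TPM, and the dotted line marks the median protein-coding gene with a count at 7.42 TPM.

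The IFT-A complex was uneven, with Wdr35 far above the other members. Wdr35, a peripheral IFT-A subunit whose mutation causes skeletal ciliopathies in humans, had 44.1 TPM in KO2 and 51.6 TPM in KO1, a mean of 47.9 ± 5.33 TPM (SD, n = 2). It lies on chromosome 12 (8973892 to 9028847, plus strand) of GRCm38 (ENSMUSG00000066643). The next member, Ift140, a core subunit, had 10.7 TPM in KO2 and 9.97 TPM in KO1. Wdr35 was thus 4.13-fold above Ift140 in KO2 and 5.18-fold in KO1. It made up 67.3% ± 3.10 of the summed level of the 5 IFT-A members (SD, n = 2), a sum without the IFT-A subunit Ttc21b.

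The remaining IFT-A genes were low. Ift43, the smallest subunit, had 6.62 TPM in KO2 and 6.10 TPM in KO1. Wdr19, which encodes the core subunit IFT144, had 3.31 TPM in KO2 and 3.88 TPM in KO1. Ift122, another core subunit, was the lowest of all 30 genes at 2.99 TPM in KO2 and 2.68 TPM in KO1, a mean of 2.84 ± 0.213 TPM, on chromosome 6 (115853470 to 115926699, plus strand). In both libraries Wdr35 lay above every other IFT-A gene, and the libraries of Ift43 did not overlap those of Wdr19 or Ift122. With the length of the longest transcript in place of merged exons, Wdr35 was 6.17-fold above the next member, then Ift43. Wdr19 rather than Ift122 was then the lowest IFT-A gene among the members. The lowest of all 30 genes was then Bbs1, at a mean of 3.69 TPM.

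In the IFT-B core, Ift52 was highest, and the highest of all 30 members. Ift52, a scaffold subunit of the core, had 72.3 TPM in KO2 and 78.1 TPM in KO1, a mean of 75.2 ± 4.09 TPM (SD, n = 2), on chromosome 2 (163017354 to 163046141, plus strand). Ift74, which with Ift81 forms a pair that binds tubulin, had 31.6 TPM in KO2 and 44.5 TPM in KO1. Its partner Ift81 had only 6.63 TPM in KO2 and 7.78 TPM in KO1, so the members of this pair differed more than their libraries did.

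The other core genes all lay below Ift74 in both libraries. Ift46, known in Chlamydomonas for the transport of outer dynein arms, had 23.7 TPM in KO2 and 22.8 TPM in KO1. Ift27, a Rab-like GTPase needed for BBSome exit from the cilium, had 19.3 TPM in KO2 and 14.3 TPM in KO1. Ift88, the gene mutated in the Oak Ridge polycystic kidney mouse, had 12.5 TPM in KO2 and 14.9 TPM in KO1. Ift27 was higher in KO2 and Ift88 in KO1, and their levels overlapped. Ift22, a second Rab-like GTPase, was the lowest core gene among the members at 6.73 TPM in KO2 and 6.16 TPM in KO1. The antisense gene Ift88os, which lies across Ift88 and is no member, had 5 counts in KO2 and 5 in KO1.

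The peripheral part of IFT-B was led by Ift20. Ift20, which also sits at the Golgi and takes part in sending membrane cargo to the cilium, had 51.5 TPM in KO2 and 48.5 TPM in KO1, a mean of 50.02 ± 2.09 TPM (SD, n = 2). It lies on chromosome 11 (78536361 to 78541737, plus strand). Traf3ip1, encoding the microtubule-binding IFT54, followed with 23.9 TPM in KO2 and 21.5 TPM in KO1. Ift20 stood clear of Traf3ip1 by 2.15-fold in KO2 and 2.26-fold in KO1.

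The 3 genes after Traf3ip1 were close together. Ift57, whose protein binds IFT20, had 14.3 TPM in KO2 and 17.4 TPM in KO1. Ift172, which encodes the largest IFT protein, had 15.7 TPM in KO2 and 14.4 TPM in KO1. Cluap1, encoding IFT38, had 11.4 TPM in KO2 and 12.2 TPM in KO1, and 22.4% of its exons lie under Gm20695 on the same strand and 18.4% under genes of the other strand, so its level is uncertain. Ift57 and Ift172 overlapped, and Cluap1 lay below both. Ift80, mutated in a human thoracic dystrophy, was the lowest peripheral gene at 6.46 TPM in KO2 and 8.71 TPM in KO1.

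BBSome genes were spread over a 12.1-fold range of mean levels, with Bbs2 at the top. Bbs2, which encodes a beta-propeller subunit, had 40.7 TPM in KO2 and 45.97 TPM in KO1, a mean of 43.3 ± 3.75 TPM (SD, n = 2). It accounted for 47.4% ± 1.205 of the summed level of the 7 BBSome members, a sum without the small subunit Bbip1. With the length of the longest transcript this share was 36.5%. Bbs2 lies on chromosome 8 (94067954 to 94098928, minus strand). Bbs5, whose protein binds phosphoinositides, followed with 14.8 TPM in KO2 and 19.7 TPM in KO1. Bbs2 was 2.74-fold above Bbs5 in KO2 and 2.34-fold in KO1, and 1.63-fold above it on the mean when the longest transcript set the length.

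Bbs9 and Bbs4 were intermediate and overlapped. Bbs9, a further beta-propeller subunit, had 9.17 TPM in KO2 and 10.6 TPM in KO1. Bbs4, which has tetratricopeptide repeats, had 7.78 TPM in KO2 and 9.60 TPM in KO1. Both lay above the 3 lowest genes of the complex in each library. Ttc8, the other repeat subunit, had 4.25 TPM in KO2 and 4.82 TPM in KO1. Bbs7, a beta-propeller subunit, had 3.78 TPM in KO2 and 4.78 TPM in KO1. Bbs1, the subunit that binds the GTPase ARL6, was lowest at 3.83 TPM in KO2 and 3.34 TPM in KO1, a mean of 3.58 ± 0.348 TPM. Bbs7 overlapped both of the other low genes, and Ttc8 lay above Bbs1.

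Mkks, Bbs12 and Bbs10 encode chaperonin-like proteins that help to assemble the BBSome, and all 3 were detected. Mkks had 21.1 TPM in KO2 and 26.4 TPM in KO1, with 29.3% of its exons under the predicted genes AL731706.1 and AL731706.2 on the same strand, so that its level is uncertain. Bbs12 had 8.67 TPM in KO2 and 11.9 TPM in KO1. Bbs10 was lowest at 5.44 TPM in KO2 and 7.23 TPM in KO1. All 3 were lower in KO2 than in KO1, and the values of no gene overlapped those of another.

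Of the genes that act on the BBSome, Arl6 was among the highest members. Arl6, the small GTPase that recruits the BBSome to membranes, had 46.6 TPM in KO2 and 61.4 TPM in KO1, a mean of 54.01 ± 10.4 TPM (SD, n = 2), on chromosome 16 (59612949 to 59639391, minus strand). Bbs1, whose protein binds it, was thus near the bottom of the order and Arl6 near the top. Lztfl1, which restrains BBSome entry into cilia, had 7.04 TPM in KO2 and 9.31 TPM in KO1.

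The medians of the complexes in KO2 were 19.3 TPM for the 7 IFT-B core genes, 14.97 TPM for the 6 peripheral IFT-B genes, 7.78 TPM for the 7 BBSome genes, 6.62 TPM for the 5 IFT-A genes and 8.67 TPM for the 3 chaperonin-like genes. In KO1 they were 14.9 TPM for the core, 15.9 TPM for the peripheral genes, 9.60 TPM for the BBSome, 6.10 TPM for IFT-A and 11.9 TPM for the chaperonin-like genes. The order of the core and peripheral IFT-B members thus turned between the libraries, while both lay above the other 3 medians given here in each. The median of the 2 BBSome regulators, Arl6 and Lztfl1, was higher still, at 26.8 TPM in KO2 and 35.3 TPM in KO1. Subunits under other symbols, such as Ttc26, Ttc30a1 and Ttc30b at means of 15.4, 10.9 and 3.71 TPM, are not in these medians. The order of the IFT-B parts may thus depend on the symbol rule. IFT-A was lowest in both libraries, but with the length of the longest transcript its median was 9.32 TPM and that of the chaperonin-like genes lay below it at 7.75 TPM. Ranges within the 4 larger complexes were wider than the differences between their medians, from 6.59-fold for peripheral IFT-B to 16.9-fold for IFT-A between the highest and lowest mean. In the order of all 30 genes, 22 of the 29 neighbouring pairs overlapped between libraries. The clear steps came after Ift52, Ift74, Traf3ip1, Ift88, Cluap1, Bbs10 and Bbs1, with merged exons as length. With the length of the longest transcript, the means of Traf3ip1, Ift88, Bbs10 and Bbs1 fell below those of Bbs5, Cluap1, Ttc8 and Ift122, the genes next in this order. The order was much alike in both libraries, with a Spearman correlation of 0.981 across the 30 genes, which are not independent replicates.

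Promoter sequence was examined because ciliary genes are known targets of RFX transcription factors, which bind the X-box, an inverted repeat of a short arm. RefSeq windows of 250 bases before to 50 bases after the transcript start (GRCm38.p6) matched 27 of the 30 members, with 28 windows. The X-box, searched as a degenerate inverted repeat with a gap of up to 3 bases, was present in 3 of 28 windows (10.7%), against 1.49% of 20140 windows of protein-coding genes. The arm GTTGCC, counted on either strand and including those inside an X-box, was in 11 windows (39.3%), against 12.4% of windows of protein-coding genes and 12.9% of those of detected ones. Windows with this arm belonged to Traf3ip1, Bbs5, Bbs7, Ift172, Lztfl1, Wdr35, Ift88, Ift27, Ift57, Ift140 and Bbs1. These matches are a description of the letters and show no binding.

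The windows with an X-box, and that of Wdr35, the highest IFT-A gene, are shown 5′ to 3′ along the gene, with the X-box in capitals, or in Wdr35 the single arm. They are Lztfl1 at chr9:123717576-123717875 on the minus strand, Ift57 at chr16:49699044-49699343 on the plus strand, Bbs1 at chr19:4906578-4906877 on the minus strand and Wdr35 at chr12:8973751-8974050 on the plus strand.
Lztfl1: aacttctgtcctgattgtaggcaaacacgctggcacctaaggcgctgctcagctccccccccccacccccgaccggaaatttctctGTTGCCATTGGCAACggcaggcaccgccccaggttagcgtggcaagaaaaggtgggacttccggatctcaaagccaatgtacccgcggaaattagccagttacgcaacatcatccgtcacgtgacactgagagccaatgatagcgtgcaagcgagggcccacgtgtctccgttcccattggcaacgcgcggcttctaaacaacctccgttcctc
Ift57: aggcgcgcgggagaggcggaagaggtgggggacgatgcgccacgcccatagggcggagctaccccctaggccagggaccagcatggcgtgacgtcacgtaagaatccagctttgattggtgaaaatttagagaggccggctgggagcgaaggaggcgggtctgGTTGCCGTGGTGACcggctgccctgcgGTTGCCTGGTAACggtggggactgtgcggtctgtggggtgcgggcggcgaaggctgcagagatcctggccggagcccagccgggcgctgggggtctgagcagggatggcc
Bbs1: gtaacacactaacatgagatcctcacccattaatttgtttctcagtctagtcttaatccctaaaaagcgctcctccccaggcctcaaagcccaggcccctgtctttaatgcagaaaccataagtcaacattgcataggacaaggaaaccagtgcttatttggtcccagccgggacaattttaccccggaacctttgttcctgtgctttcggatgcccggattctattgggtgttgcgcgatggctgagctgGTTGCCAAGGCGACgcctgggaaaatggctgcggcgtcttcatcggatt
Wdr35: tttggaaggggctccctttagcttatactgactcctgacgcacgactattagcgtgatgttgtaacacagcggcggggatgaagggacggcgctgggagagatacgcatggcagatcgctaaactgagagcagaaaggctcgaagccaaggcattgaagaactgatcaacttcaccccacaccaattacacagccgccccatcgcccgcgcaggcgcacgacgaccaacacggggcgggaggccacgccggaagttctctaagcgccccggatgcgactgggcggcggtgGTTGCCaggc
The X-box of Lztfl1 begins 164 bases before the transcript start, those of Ift57 begin 87 and 60 bases before it, and that of Bbs1 lies just after it. The Lztfl1 and second Ift57 sites read as an X-box on both strands. Levels of the genes with an X-box were not alike: Ift57 was at 15.8 ± 2.21 TPM, Lztfl1 at 8.18 ± 1.61 TPM and Bbs1 at 3.58 ± 0.348 TPM (SD, n = 2). CG dinucleotides numbered from 11 to 35 per member window, with a median of 21.5, beside 21 for windows of detected protein-coding genes.

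How far the duplicates differed was measured as the ratio KO2 over KO1 of counts scaled by trimmed mean of M values (TMM), with its exact 95% counting interval. No member differed beyond 2-fold, 0 of 30, where 1.06% of the 15619 genes with 50 or more counts over both libraries did, Ago1 among them. After the correction for GC content described after these ratios, 0 of 30 members and 0.263% of genes did. Member ratios ran from 0.730-fold at Ift74 to 1.39-fold at Ift27. Ift74 had 1350 counts in KO2 and 1922 in KO1, a log2 ratio of -0.45 (95% interval -0.55 to -0.35). Ift27 had 890 counts in KO2 and 665 in KO1, a log2 ratio of 0.48 (95% interval 0.33 to 0.62). Both belong to the IFT-B core, in which Ift74 was thus lower and Ift27 higher in KO2. After the GC correction Ift27 was at 0.04 (95% interval -0.11 to 0.18) and Ift74 at -0.14 (95% interval -0.24 to -0.04).

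Smaller differences beyond counting error were common. The whole interval lay below 1 at 18 of 30 members, where 33.0% of protein-coding genes did so, and above 1 at 8 members, where 38.0% did so. The median log2 ratio of the members was -0.18, against 0.03 over 13410 protein-coding genes. Chaperonin-like genes and BBSome regulators were lower in KO2 throughout, 3 of 3 and 2 of 2. Bbs12 was at -0.42 (95% interval -0.63 to -0.22) and Arl6 at -0.36 (95% interval -0.45 to -0.26). Of the BBSome genes 5 of 7 were lower and 1 higher, Bbs1 at 0.24 (95% interval 0.05 to 0.43). IFT-A had 2 lower genes, Wdr35 and Wdr19, and 2 higher, Ift140 and Ift122. The IFT-B core had 4 lower, Ift52, Ift74, Ift81 and Ift88, and 2 higher, Ift27 and Ift46. The peripheral genes had 2 lower, Ift57 and Ift80, and 3 higher, Ift20, Ift172 and Traf3ip1. These calls cover counting error only and have no replicate check.

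**Figure D2:**
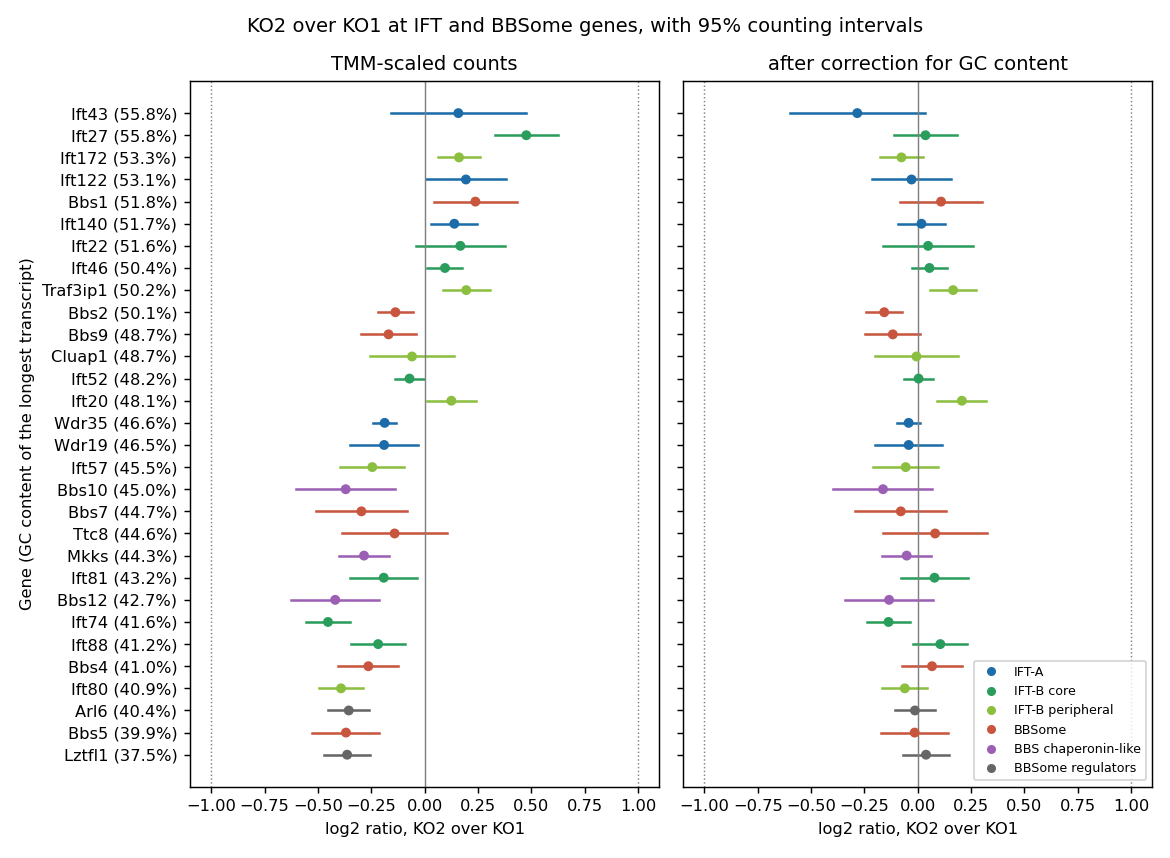
log2 ratio of KO2 over KO1 for each member with its 95% counting interval (bars), ordered by GC content of the longest transcript from high at the top to low at the bottom, before (left) and after (right) correction for GC content. Dotted lines mark 2-fold. On the left the ratios run from 0.48 at Ift27 to -0.45 at Ift74 and fall with GC content, and on the right 26 of 30 intervals span 0.

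These ratios followed the GC content of the transcripts. Across the 30 members the log2 ratio and GC content had a Spearman correlation of 0.889 and a Pearson correlation of 0.896, as a description over genes that share both libraries. Over protein-coding genes with 50 or more summed counts the Spearman correlation was 0.842. Median GC content was 46.6% for the members and 50% for those protein-coding genes. Of the 13 members under 45% GC, 12 were lower in KO2 beyond counting error and 0 higher, with a median log2 ratio of -0.36. Of all protein-coding genes under 45% GC, 80.3% were lower and 1.59% higher in the same way. Of the 17 members at 45% GC or more, 6 were lower and 8 higher, with a median of 0.13, where 17.4% and 50.1% of all protein-coding genes at that GC content were lower and higher. Lztfl1, with the lowest GC content at 37.5%, was at -0.36 (95% interval -0.47 to -0.26).

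After a smooth correction for GC content most member ratios lay within counting error of 0. Their median log2 ratio became -0.01, beside -0.01 over all protein-coding genes. Its SD across members was 0.24 before and 0.11 after the correction, and 0.41 and 0.21 across the 8427 protein-coding genes with a mean count in the same range. The interval spanned 1 at 26 of 30 members, where 56.2% of protein-coding genes did so. These shares are not matched for depth, and fewer counts widen the intervals. The median count was 924.5 for members and 1227.75 for protein-coding genes with 50 or more summed counts. Ift74 at -0.14 (-0.24 to -0.04) and Bbs2 at -0.16 (-0.24 to -0.07) stayed lower in KO2, where 22.2% of protein-coding genes were lower. Ift20 at 0.21 (0.09 to 0.32) and Traf3ip1 at 0.17 (0.06 to 0.28) were higher, where 21.7% were. Both are peripheral IFT-B genes, but the rest of that part was not higher. Corrected log2 ratios of Ift172, Ift80, Ift57 and Cluap1 lay from -0.08 to -0.01, with intervals that spanned 0. Ift43 had the lowest corrected ratio, -0.28 (-0.60 to 0.03), on 176 counts in KO2 and 164 in KO1, which is too shallow to place it away from 0.

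**Figure D3:**
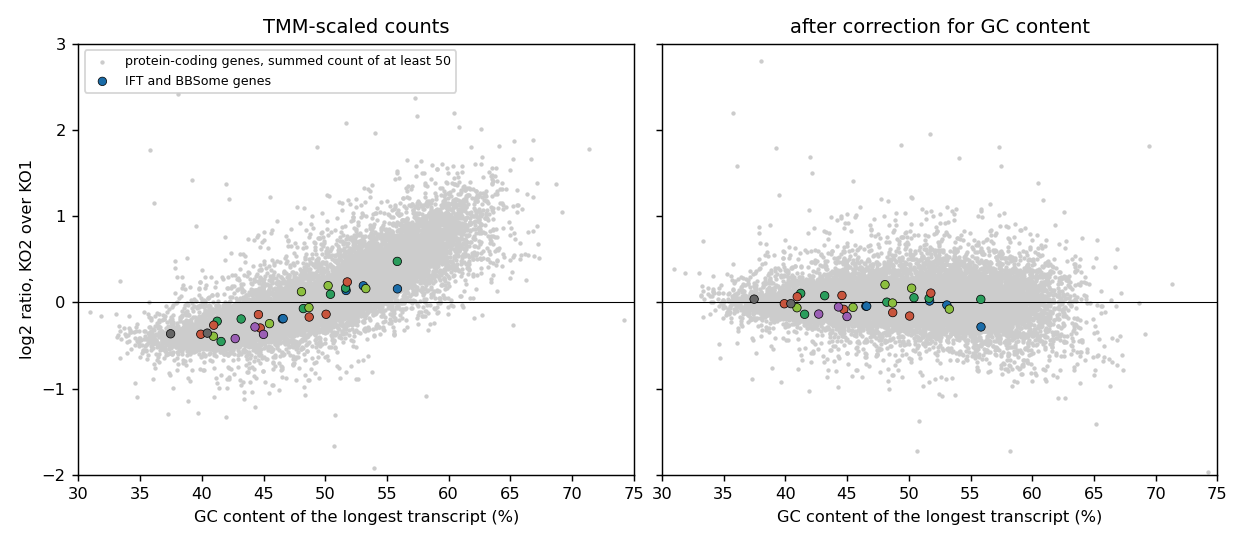
log2 ratio of KO2 over KO1 against GC content of the longest transcript in percent, for protein-coding genes with 50 or more summed counts (grey) and the 30 members (coloured by complex as in the plot of ratios), before (left) and after (right) correction. Members follow the grey cloud, with a Spearman correlation of 0.889 before correction, and 7 grey genes lie outside the axes of each panel.

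Other genes of the cilium were examined as 8 lists with 85 genes, of which 78 were detected, where 55.3% of all protein-coding genes were. Among the subunits that carry other symbols, 6 of 7 were detected. Ttc26 and Ttc30a1, both IFT-B subunits, were highest at 15.4 ± 3.85 TPM and 10.9 ± 0.969 TPM (SD, n = 2), and Ttc30b and Ttc30a2 lowest at 3.71 ± 0.816 TPM and 0.406 ± 0.0327 TPM. The Ttc30 genes are near-identical paralogs, so the split between them is uncertain. Ttc21b, the IFT-A subunit outside the symbol rule, was at 3.997 ± 0.740 TPM, and Bbip1, the small BBSome subunit, at 10.5 ± 2.23 TPM, the last pair named after their values were seen.

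Of the IFT motor genes 8 of 9 were detected. Kifap3, the cargo adapter of kinesin-2, was highest at 74.4 ± 12.3 TPM and Wdr34, a dynein-2 intermediate chain, next at 24.02 ± 8.71 TPM. Wdr60, its partner chain, was low at 3.17 ± 0.0606 TPM, and Kif17, a second kinesin-2, was below the detection threshold at 0.506 ± 0.0899 TPM. Kifap3 was thus at the level of Ift52, while the lowest motor genes were at that of Ift122 or below.

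All 17 transition zone genes, 13 GTPase and cargo adapter genes, 9 basal body genes and 8 Hedgehog genes were detected. In the transition zone, the gate at the ciliary base, B9d1 and Tmem231 led at 45.7 ± 5.03 TPM and 21.6 ± 0.485 TPM, and Nphp4 and Rpgrip1l were lowest at 2.43 ± 1.14 TPM and 2.05 ± 0.602 TPM. Rab11a and Arl2bp led the adapters at 67.7 ± 13.4 TPM and 53.5 ± 0.182 TPM, which ended in Rabl2 and Inpp5e at 12.97 ± 0.707 TPM and 7.14 ± 0.870 TPM. Among basal body genes Ccp110, a cap protein that holds back cilium growth, and Ofd1 led at 40.6 ± 6.49 TPM and 31.1 ± 7.25 TPM, with Cep97 and Ttbk2 lowest at 8.22 ± 0.959 TPM and 5.29 ± 1.43 TPM. The Hedgehog effectors Gli2 and Gli1 were at 36.9 ± 9.70 TPM and 16.9 ± 5.12 TPM, and Gli3 and the receptor gene Gpr161 at 5.59 ± 0.379 TPM and 1.84 ± 0.0462 TPM.

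Transcription factors of ciliary genes were detected in 7 of 9 cases and genes of motile cilia in 10 of 13. Rfx7 and Rfx2 led the factors at 36.1 ± 6.28 TPM and 17.7 ± 6.02 TPM, whereas Gmnc was at 1.15 ± 0.0288 TPM and Mcidas at 0 counts, which allows up to 0.0549 CPM in KO2 and 0.0528 CPM in KO1. Motile cilia genes had the lowest median of the 8 lists, 2.89 TPM, with Tekt1 and Hydin at 14.1 ± 0.0600 TPM and 5.47 ± 0.460 TPM. The threshold of 1 CPM is not scaled by length. The dynein heavy chain gene Dnah5 thus passed it at a mean of 0.255 TPM, with 64 counts in KO2 and 65 in KO1. Foxj1 missed it at a mean of 1.72 TPM. Dnah9 had 1 count in each library. Between the duplicates, 1 of the 81 list genes with 50 or more summed counts was beyond 2-fold, Rfx1, named after its value was seen, at 1661 counts in KO2 and 719 in KO1, where 1.06% of all genes were beyond 2-fold. Its log2 ratio was 1.26, and 0.43 after the GC correction.

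**Figure D4:**
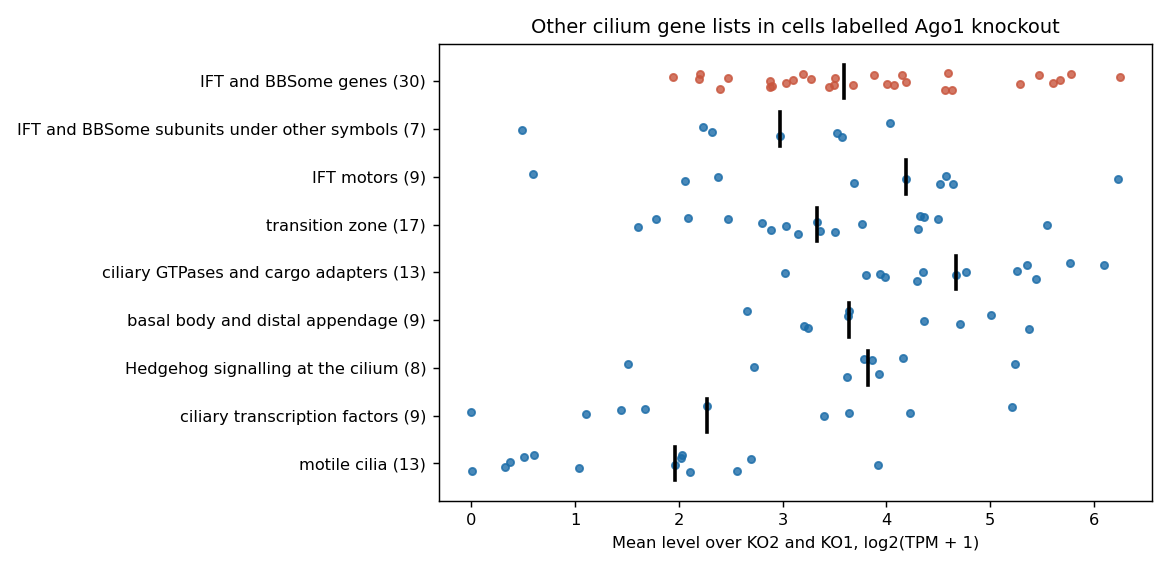
Mean level over KO2 and KO1 of each gene, as log2(TPM + 1), for the 30 members (top row) and the 8 other cilium lists, with a vertical bar at each list's median; the small vertical scatter has no meaning. Motile cilia genes have the lowest median, 2.89 TPM, against 11.1 TPM for the members.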

How the data were processed

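For 2 polyA RNA libraries of 1 group the authors deposited raw counts of reads per Ensembl gene in 1 table, made on GRCm38 per the submitters' processing notes. The sources used here do not name the aligner, the counter, its strand setting or the gene annotation, so how reads shared by near-identical or overlapping genes were counted is unknown. Of the identifiers 55240 matched GENCODE M21, and the other 181 held 0.00416% of counts.

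CPM used trimmed mean of M values (TMM) scaling in edgeR 4.0.16 (R 4.3.3, DESeq2 1.42.0 as an alternative), with factors of 1.00 for KO2 and 0.996 for KO1. TPM used merged exonic lengths. Values are means ± SD over 2 libraries, and this spread may be technical. With 1 group no test between conditions was possible. The common biological coefficient of variation was 0.193 over 13347 genes. Ratios of KO2 over KO1 have a prior count of 0.5 and exact conditional binomial intervals, called beyond 2-fold with 50 or more summed counts. GC content was corrected by lowess with a span of 0.3 (statsmodels 0.14.6). Intervals and floors, the latter of 3 counts, cover counting error only. On simulated counts for 15619 genes with 200 raised by 3-fold in KO2 over KO1, the rule recovered 93.5% and made 0 false calls. The simulated counts held counting error only, without the spread of 0.193 or the GC trend between the real libraries. They thus do not show how many false calls the rule makes on the real counts. Other steps used pandas 2.3.3, scipy 1.17.1 and matplotlib 3.10.9 in python 3.11.15.

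All members are described. Of each other list the 2 highest and 2 lowest genes are named. Members and lists were chosen with earlier results of these data known. Dnaic1 and Dnaic2 were matched by older symbols. Alternatives were other scalings, thresholds, lengths, GC correction and each library alone.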

Additional observations from a re-analysis of the deposited data

How the results depend on the processing

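No paired analysis was possible because there is only 1 group. The count of 30 detected members was 30 under every alternative run. These were total counts without TMM, DESeq2 size factors, minimums of 0.5 CPM, 2 CPM or 10 counts, and each library alone. The share of all protein-coding genes, 55.3% at 1 CPM, is not given for these alternatives. The 0 members beyond 2-fold stayed at 0 with both other scalings, at 1.5-fold and 3-fold, and with no filter. The count was also 0 with a summed count of at least 200 and after the GC correction. Over all genes, 165 of 15619 (1.06%) were beyond 2-fold, and of the same genes 1031 at 1.5-fold and 24 at 3-fold. With the GC correction 41 of 15603 genes (0.263%) were beyond 2-fold. The median member level of 11.1 TPM was 11.3 TPM with the longest transcript as length, 11.9 TPM over protein-coding genes only, 12.0 TPM without mitochondrially encoded genes, and 11.1 to 12.1 TPM with each library alone. The median log2 ratio of -0.18 ran from -0.23 to -0.17 with other scalings and filters and was -0.014 after the GC correction, which was thus the setting that moved it. The common spread was 0.193, 0.196 with DESeq2 and 0.199 with no filter. DESeq2 size factors were 1 for both libraries, which left them unscaled. Ift43, Ttc8 and Bbs10 had the fewest counts, which widens their intervals.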
